A study of Mus musculus with 14 samples.

Results

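The proteasome genes of the mouse were described here in primitive erythroid precursors, the earliest cells of the red lineage in the embryo, with and without the Krüppel-like factors KLF1 and KLF2. Genes were taken by name: every gene whose symbol on the array platform is Psma, Psmb, Psmc, Psmd, Psme, Psmf or Psmg followed by a number. The rule found 46 of the 12393 genes with a probe set of their own, a probe set being a group of short probes for 1 transcript. Where a gene has several probe sets, the brightest was read, by the mean over the 14 arrays. The probe set of Psme2, which encodes the second subunit of the PA28 activator, is paired with both Psme2b and Psme2, so Psme2 was left out, and Psmb11 was not analysed here.

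Erythroid cells were cut by laser capture from stained 8 µm frozen sections of yolk sacs of embryonic day 9.5, and each RNA sample was hybridised to 1 Affymetrix mouse expression array. All carry the strain label FVB/N. There were 8 samples of wild-type embryos (WT), 3 of KLF1-/- embryos and 3 labelled KLF1-/- KLF2-/-, bred from KLF1+/- and KLF1+/- KLF2+/- females and genotyped from the embryo tail, with no treatment in any group. Both mutant groups lack KLF1, an activator of red cell genes, by label, and the second also carries the label of loss of KLF2, a related factor of erythroid and endothelial cells. Each sample pooled 2 to 4 yolk sacs from 2 litters. Whether samples shared a litter is not given, so p-values measure only the spread between these samples. In such captured material, fewer cells of a type and less RNA per cell cannot be told apart. The titles number the arrays in 2 runs: 1 to 8 hold WT 1 to 4 and the KLF1-/- arrays 5, 6 and 8, and 9 to 15 hold WT 9 to 12 and the arrays 13 to 15 labelled KLF1-/- KLF2-/-. Whether the runs mark batches is not stated.

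The Klf1 probe set lay below every WT array in both mutant groups, with log2 differences of −1.22 and −1.52 and limma adjusted p-values of 1 and 0.317. By number run, it read 10.05 to 10.59 on WT 1 to 4 and 9.03 to 9.79 on the KLF1-/- arrays. On WT 9 to 12 it read 10.36 to 11.82, and on arrays 13 to 15 it read 8.56 to 9.59. The Klf2 probe set read 0.44 higher, not lower, on the arrays labelled KLF1-/- KLF2-/- than on WT arrays (adjusted p = 1). Whether it lies outside the deleted part of the gene is not given, so these arrays are named by their label throughout. Of 11 erythroid marker genes 10 were measured, and their mean log2 level was 10.57 to 11.61 on WT arrays, 10.64 to 10.84 on KLF1-/- arrays and 10.43 to 11.26 on those labelled KLF1-/- KLF2-/-. The list holds the globin gene Hba-a1, whose probe set was dim, with a mean of 4.71 over all arrays. Within that list Tfrc, the transferrin receptor, lay below every WT array in both groups, by −1.49 and −1.53. Slc4a1, the red cell anion exchanger, differed by −0.92 and −0.88, and neither gene was called. The rest of the list did not share these sizes, and Gata1 differed by 0.43 and 0.47. Of the 10 markers 2 lay above 0 in KLF1-/- (median −0.05) and 7 under the KLF1-/- KLF2-/- label (median 0.04). The mean of 9 visceral endoderm markers was 10.81 to 12.52, 11.49 to 12.17 and 11.48 to 11.61 in the same order.

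As background, the 26S proteasome degrades proteins that carry ubiquitin chains. Its 20S core is a barrel of stacked rings: outer alpha rings, encoded by Psma genes, gate the entry, and inner beta rings, encoded by Psmb genes, hold the proteases. The 19S cap has a base of ATPases (Psmc) that unfold the substrate and a lid (most Psmd) that takes off the ubiquitin. Other members of the family are activators (Psme), an inhibitor (Psmf1) and chaperones that assemble the core (Psmg) or the base (Psmd5, Psmd9 and Psmd10). In blood cells and under interferon, the proteases of the beta ring can be exchanged for the inducible forms Psmb8, Psmb9 and Psmb10. Red cell precursors use ubiquitin and the proteasome to clear proteins as they mature.

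The promoters of 3 members are printed because Psmb10 is the member whose arrays did not overlap in 1 comparison below and Psme1 the one with the smallest unadjusted p there, though neither was called, and Psmb9 is the inducible subunit that lies head to head with another gene of antigen processing. Each window runs 5′ to 3′ on the gene's strand from 250 bases before to 50 bases after the start in RefSeq's table for GRCm38.p6. Psmb10, a protease of the inducible beta ring, has its window at chr8:105938343-105938642 on the minus strand. Psme1, the alpha subunit of the PA28 activator, has its window at chr14:55578244-55578543 on the plus strand. Psmb9, also an inducible protease, has its window at chr17:34187281-34187580 on the minus strand, and 275 of its bases lie in the window of Tap1, the antigen peptide transporter, on the opposite strand. Capitals mark matches, on either strand, to the KLF-type box CCNCNCCC or to an interferon element, GAAA and GAAA with any 2 bases between them.
Psmb10: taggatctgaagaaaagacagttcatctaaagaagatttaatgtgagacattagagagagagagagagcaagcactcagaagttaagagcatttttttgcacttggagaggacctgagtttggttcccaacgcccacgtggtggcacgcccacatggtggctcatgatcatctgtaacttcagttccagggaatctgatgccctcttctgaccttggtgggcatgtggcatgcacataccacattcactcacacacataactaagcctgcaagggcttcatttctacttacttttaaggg
Psme1: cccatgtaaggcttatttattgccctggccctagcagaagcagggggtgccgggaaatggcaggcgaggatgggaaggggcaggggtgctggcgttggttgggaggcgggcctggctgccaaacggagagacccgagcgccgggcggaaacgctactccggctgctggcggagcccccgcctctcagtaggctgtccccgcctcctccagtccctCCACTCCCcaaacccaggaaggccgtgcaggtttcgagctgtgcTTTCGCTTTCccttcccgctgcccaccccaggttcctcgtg
Psmb9: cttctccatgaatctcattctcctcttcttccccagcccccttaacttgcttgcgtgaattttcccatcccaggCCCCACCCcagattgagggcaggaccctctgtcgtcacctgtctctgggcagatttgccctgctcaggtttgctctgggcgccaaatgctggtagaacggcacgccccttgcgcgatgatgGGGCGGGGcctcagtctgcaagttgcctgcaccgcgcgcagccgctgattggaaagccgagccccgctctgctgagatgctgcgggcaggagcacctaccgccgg
Psmb10's window held neither motif. In Psme1's window the KLF-type box began 35 bases before the start and the interferon element lay on the opposite strand just after it, and Psmb9's window held 2 KLF-type boxes. Promoters were found for 38 of the 46 members, 40 in all, and 22 of them (55.0%) held the KLF-type box, against 49.5% of the 32851 promoters in the table. The interferon element was in 5 (12.5%, against 3.44%), those of Psmb3, Psmd4, Psmd9, Psme1 and Psmg4. The CCAAT box was in 13 (32.5%, against 37.4%), and the antioxidant response core TGACNNNGC, the kind of element that the factors NFE2L1 and NFE2L2 bind, in 6 (15%, against 12.4%), those of Psmb5, Psmb6, Psmc6, Psmd9, Psmd12 and Psme4. Psmb10 and Psmd7 are the 2 members on chromosome 8, which also carries Klf1 and Klf2.

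All levels below are log2 values of a probe set, so that a difference of 1 is a 2-fold difference, and levels of different probe sets cannot be set against each other as amounts of RNA. The member means over the 14 arrays ran from 5.48 (Psmb9) to 13.05 (Psma3), and 40 of the 46 members lay above the array median on every array. The dim members included the inducible subunits Psmb8 and Psmb9, and Psma8, the testis form of an alpha subunit, which read 5.22 to 6.14 on WT arrays.

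The proteasome genes moved from array to array within each genotype, and most of them moved together. The median of the 46 members was 9.09, 9.71, 8.78 and 9.0 on WT 1 to 4 and 9.78, 9.45, 9.55 and 8.68 on WT 9 to 12. It was 9.05, 9.97 and 9.28 on KLF1-/- 5, 6 and 8, and 9.43, 10.02 and 8.68 on the arrays 13, 14 and 15 labelled KLF1-/- KLF2-/-. Each mutant group thus had 1 array above all WT arrays, and array 15 matched the lowest WT array to the second decimal. The group means were 9.26 ± 0.42 (SD, n = 8), 9.43 ± 0.48 (SD, n = 3) and 9.38 ± 0.67 (SD, n = 3).

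The number of members above their own mean over all arrays shows how widely the genes shared this movement. It was 43 of 46 on KLF1-/- 6 and on WT 9, 42 on array 14 and 41 on WT 2, but 3 on WT 12, 4 on array 15 and 6 on WT 4. WT 12 held the lowest value of 25 members, and KLF1-/- 6 the highest of 19. The same arrays also differed in how widely all their values spread. The 4 arrays with the highest member median (14, KLF1-/- 6, WT 9 and WT 2) had the largest interquartile ranges of all probe sets, from 2.78 to 3.12, and the 4 with the lowest (WT 12, 15, WT 3 and WT 4) had the smallest, from 2.31 to 2.42. After quantile normalization, which gives every array the same distribution, the count above the mean was 39 on array 14, 37 on WT 9 and 36 on KLF1-/- 6, and 10 on array 15 and 11 on WT 12. For WT 2 it went from 41 to 24 and for WT 4 from 6 to 19, near the middle of the 46. The part of array spread in these values was not tested.

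**Figure D1:**
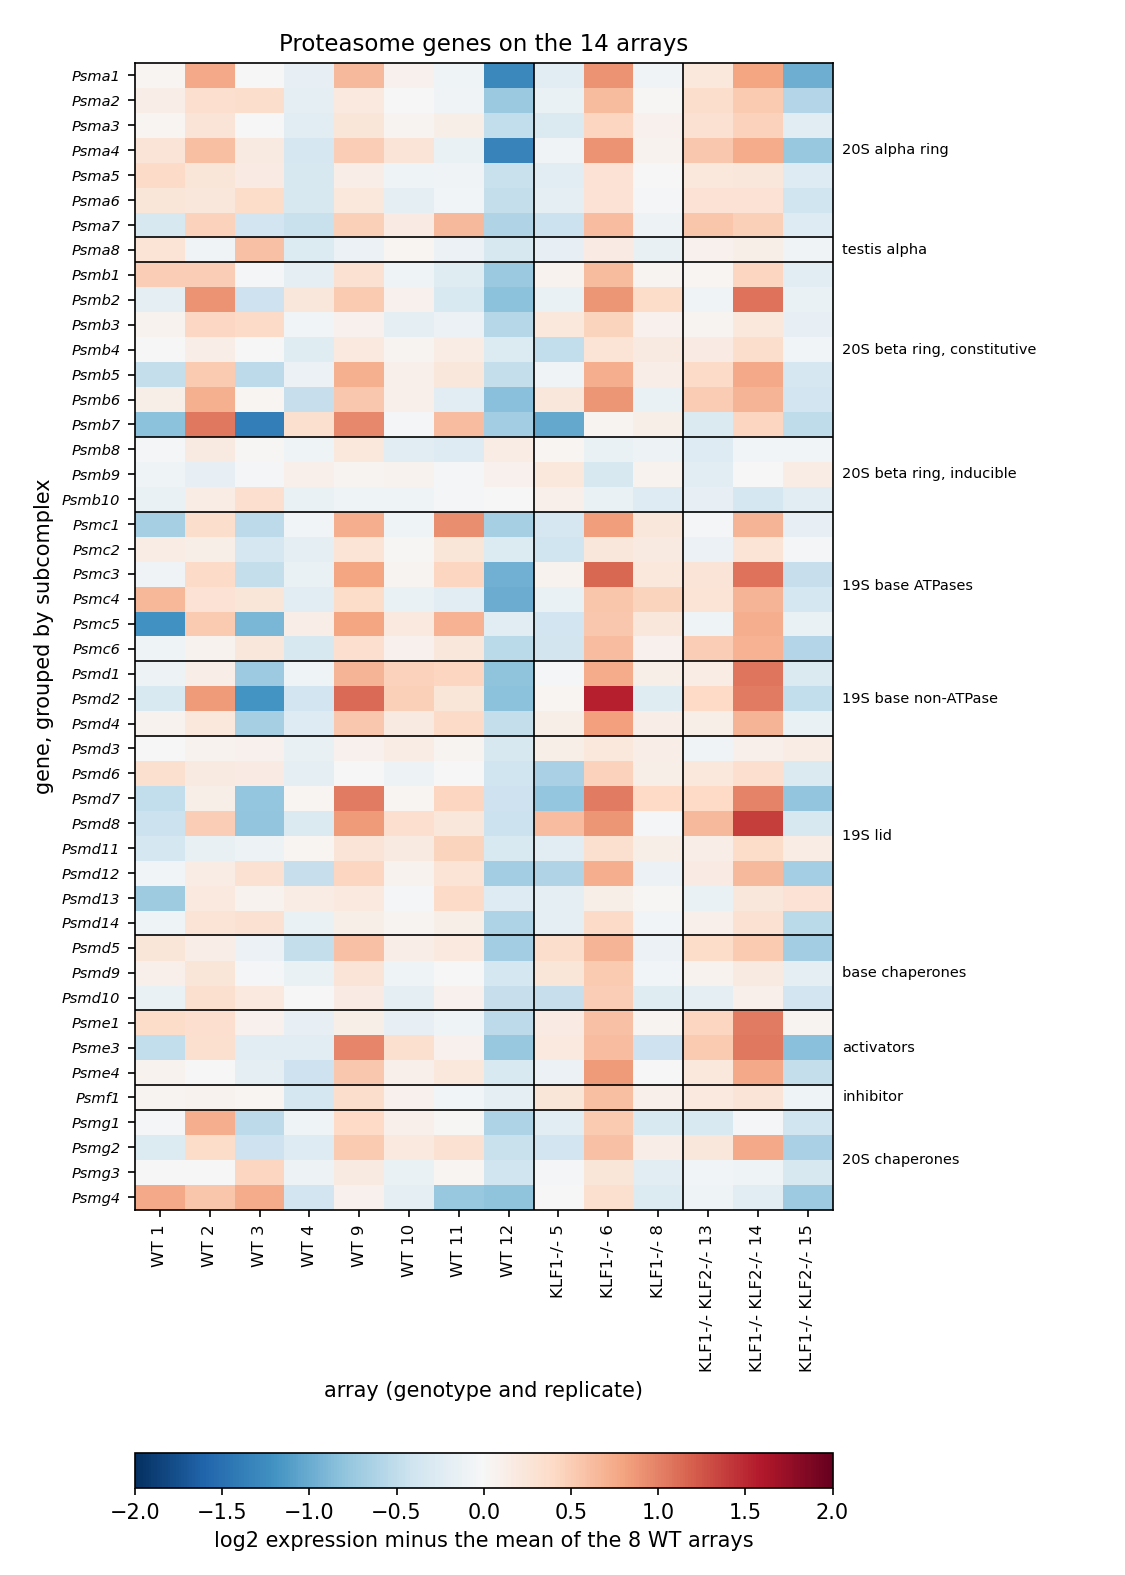
Log2 expression of the 46 proteasome genes (rows, by subcomplex) on the 14 arrays (columns, by genotype and replicate number), each minus that gene's mean over the 8 WT arrays. Red columns such as WT 9, KLF1-/- 6 and KLF1-/- KLF2-/- 14 and blue columns such as WT 12 and KLF1-/- KLF2-/- 15 run through most subcomplexes, while the rows of Psmb8, Psmb9 and Psmb10 stay pale.

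**Figure D2:**
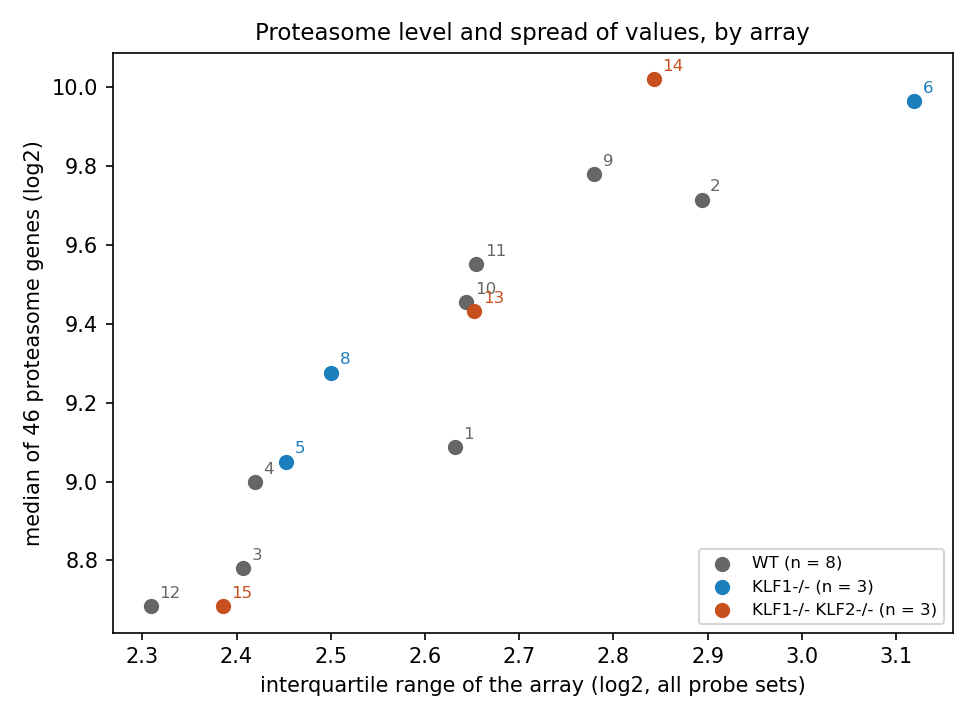
Each point is 1 array, placed by the interquartile range of all its log2 values (horizontal) and the median log2 level of the 46 proteasome genes (vertical), coloured by genotype and marked with its replicate number. The median ran from 8.68 to 10.02 over the arrays, and the 3 genotypes overlap.

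By the median, the members also spread more among replicates than all genes did. Most members were bright, no set of genes of like level was compared, and the part of level in this spread was not tested. Their residual SD within genotypes had a median of 0.42 and ran from 0.14 for Psmd3, a lid scaffold subunit, to 0.84 for Psmd2, the scaffold of the base that holds ubiquitin receptors, while the median over all genes was 0.27. The range of a member over the 14 arrays was 0.48 to 2.74, with a median of 1.33.

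In KLF1-/- precursors, no proteasome gene passed the test against WT. Of the 46 members 0 were called at an adjusted p under 0.05, against 5 of all 12393 genes (0.0403%), and 0 had an unadjusted p under 0.05, against 251 (2.03%). No member had all KLF1-/- arrays on one side of all WT arrays, which 71 genes (0.573%) did, 32 below (0.258%) and 39 above (0.315%). The differences were small and mostly upward: 37 of 46 (80.4%) lay above 0, with a median of 0.13, while 52.1% of all genes lay above 0, with a median of 0.01. They ran from −0.28 (Psmb7) to 0.49 (Psmd8). The median direction rested on 1 array, since without KLF1-/- 6 it was −0.08, with 16 of 46 above 0, and it was 0.28 without KLF1-/- 5, 0.20 without WT 9 and 0.04 without WT 12. It was 0.08 after quantile normalization and 0.05 with a Gapdh covariate for RNA quality.

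On the arrays labelled KLF1-/- KLF2-/-, the proteasome genes were again not called. Of the 46 members 0 were called, against 8 of all genes (0.0646%), and 1 (Psme1) had an unadjusted p under 0.05, against 288 of all genes (2.32%), a share near that of the members. Only Psmb10 had mutant and WT arrays that did not overlap, which 93 genes (0.75%) did, and it lay below, as 38 genes did (0.307%), with 55 above (0.444%). Again 37 of 46 members lay above 0, against 52.1% of all genes, and the median was 0.12 against 0.01. The differences ran from −0.34 (Psmg4) to 0.57 (Psmd8). Without array 14 the median was −0.07, with 12 of 46 above 0, and without array 15 it was 0.33, without WT 4 0.076 and without WT 12 0.04. The median was 0.07 with the number run as a block, 0.07 with the mean of all probe sets of a gene, and −0.0038 with quantile normalization and the block together, an alternative added after seeing the data.

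Both mutant comparisons share the 8 WT arrays, so their values are given side by side and not compared as independent. In 33 members both differences lay above 0 and in 5 both lay below. For all 46 members the range over the WT arrays was larger than either difference. The 95% interval of the difference lay within −1 and 1 for 36 of 46 members in each comparison. For the other 10 of each comparison, in part different genes, a 2-fold difference was not excluded by its interval. A p above the threshold does not show equal levels.

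**Figure D3:**
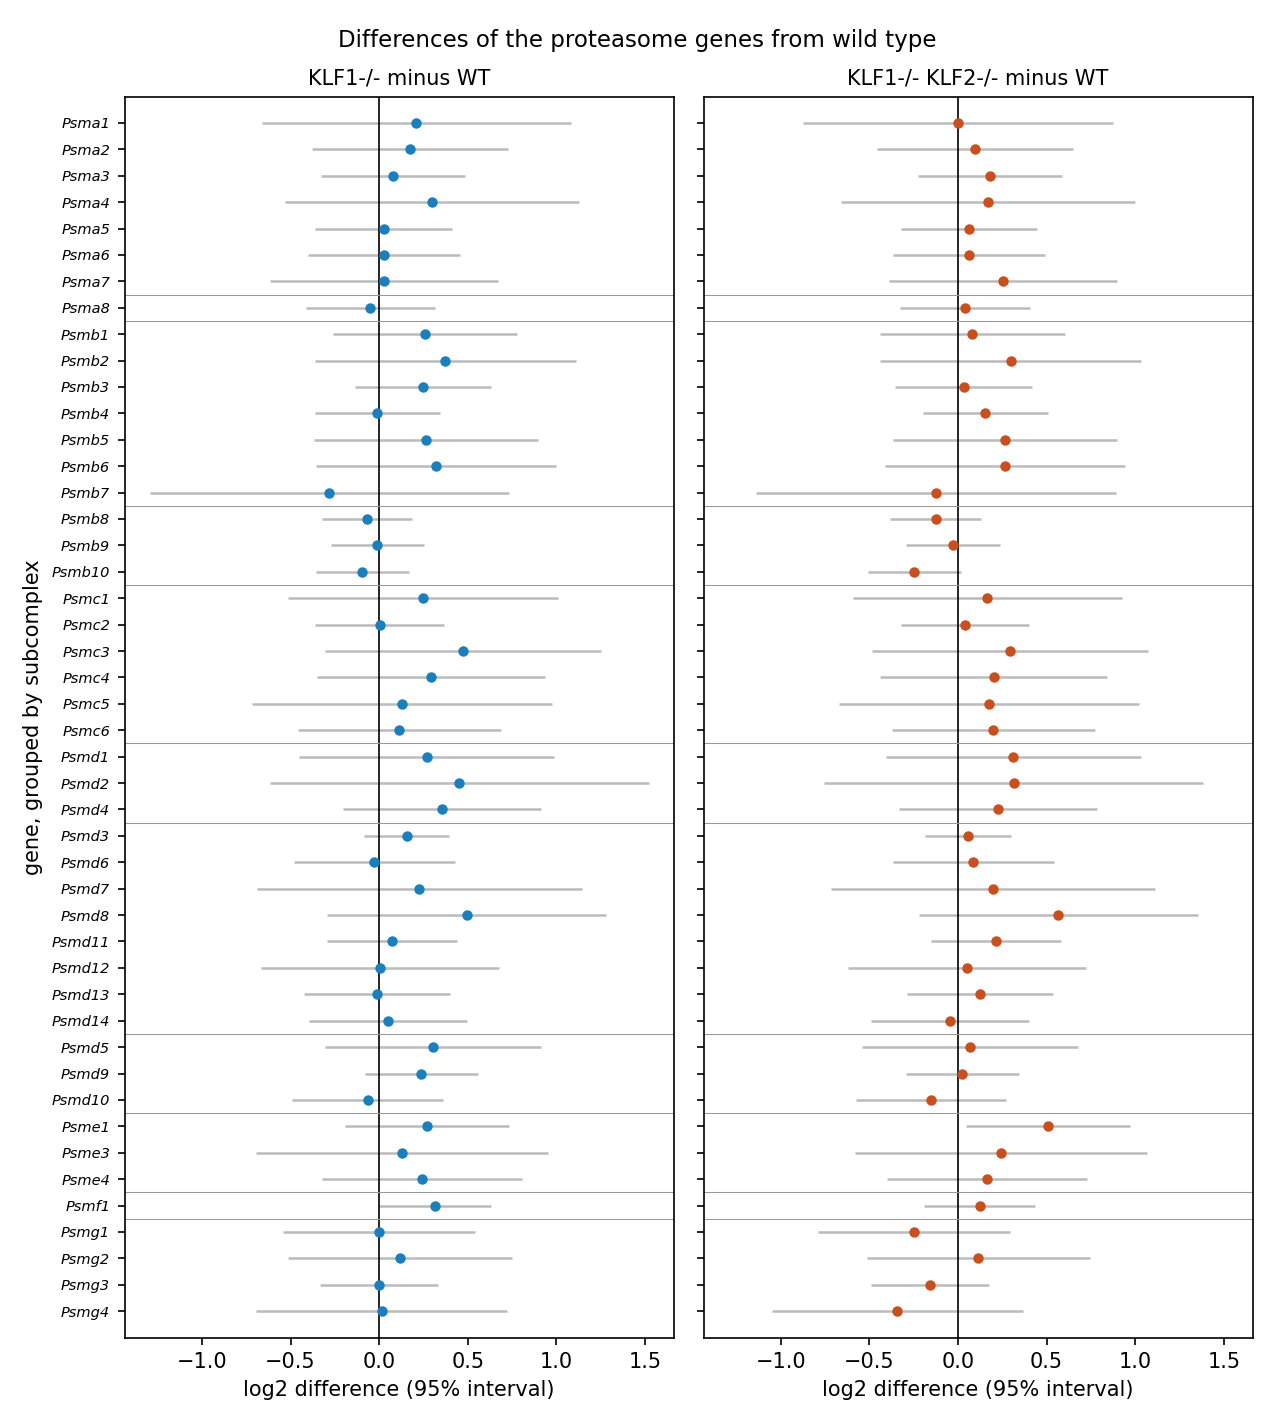
Log2 difference from WT of each proteasome gene (n = 8 WT, 3 KLF1-/- and 3 labelled KLF1-/- KLF2-/- arrays), by subcomplex, with the 95% interval of the limma fit as a bar. In 45 of 46 members both intervals include 0, and the exception is Psme1 on the arrays labelled KLF1-/- KLF2-/-, whose interval runs from 0.05 to 0.97.

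The 7 genes of the outer alpha ring, which open or close the channel of the core, had median differences of 0.08 in KLF1-/- and 0.10 under the KLF1-/- KLF2-/- label, with all 7 above 0 in each and none called. These directions rested on single arrays: without KLF1-/- 6 the first median was −0.10 with 0 of 7 above 0, and the second was −0.0495 without array 14, −0.0125 without array 13 and −0.0044 without WT 12, with 2 of 7 above 0 each time. The first was 0.0084 without WT 12. With the number run as a block they were 0.05 (5 of 7) and 0.19 (7 of 7). Psma3 was the brightest of them. It read 12.51 to 13.26 on WT arrays (median 13.04), 12.71, 13.42 and 13.08 on KLF1-/- arrays, and 13.30, 13.46 and 12.77 on the arrays labelled KLF1-/- KLF2-/-. The groups overlap, with KLF1-/- 6 and arrays 13 and 14 above the WT range, and the differences were 0.08 and 0.18 (SE 0.19 for each). Psma4, another ring subunit, had the larger spread, with WT arrays from 7.79 to 9.72, KLF1-/- arrays at 9.05, 10.02 and 9.19, and the others at 9.66, 9.86 and 8.37. Its lowest value came from WT 12, and its differences of 0.30 and 0.17 were below their SE of 0.39. Psma8, whose product replaces an alpha subunit in male germ cells, differed by −0.05 and 0.04.

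Of the 7 constitutive beta ring genes none was called. Their median difference was 0.26 in KLF1-/-, with 5 above 0, and 0.15 under the KLF1-/- KLF2-/- label, with 6 above 0. The first was 0.04 without KLF1-/- 6, the second −0.06 without array 14, and with the block they were 0.07 and 0.23. Psmb5 encodes the chymotrypsin-like protease, the target of proteasome-inhibiting drugs. It read 10.78 to 12.02 on WT arrays (median 11.30), 11.23, 12.03 and 11.43 on KLF1-/- arrays, and 11.68, 12.06 and 10.97 on the others. The mutant arrays spanned nearly the whole WT range, and the differences were 0.26 and 0.27 (SE 0.30). Psmb6, the caspase-like protease, read 10.69 to 12.24 on WT arrays (median 11.60), 11.75, 12.41 and 11.39 on KLF1-/- arrays, and 12.03, 12.20 and 11.15 on the others, with differences of 0.32 and 0.27 (SE 0.32). Psmb7, the trypsin-like protease, was the one whose difference was below 0 in both comparisons, at −0.28 and −0.12 (SE 0.47). It also had the widest WT spread of these proteases: 8.31 to 10.75 with a median of 9.85, against 8.67, 9.76 and 9.82 and 9.41, 10.13 and 9.20 on the mutant arrays. Psmb1, Psmb2 and Psmb4 encode subunits of the same ring that are not proteases. Their differences were 0.26, 0.37 and −0.01 in KLF1-/- and 0.08, 0.30 and 0.15 under the KLF1-/- KLF2-/- label.

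The 3 inducible beta subunits were steady, Psmb8 and Psmb9 were dim, and all 3 lay below WT in both comparisons, with none called. In KLF1-/- 1 of the 3 lay above WT with the number run as a block, with quantile normalization and with a Gapdh covariate. The same count was found without KLF1-/- 6, without WT 4 and without WT 12, and with arrays weighted 2 of the 3 lay above WT. Under the KLF1-/- KLF2-/- label 1 of the 3 lay above WT without array 13. Psmb8, the inducible counterpart of Psmb5, read 5.82 to 6.28 on WT arrays (median 6.07), 6.11, 5.93 and 5.97 on KLF1-/- arrays, and 5.81, 6.02 and 6.01 on the others. These values overlap, and the differences were −0.07 and −0.13 (SE 0.12). Psmb9, the counterpart of Psmb6, read 5.32 to 5.58 on WT arrays (median 5.50), 5.70, 5.17 and 5.55 on KLF1-/- arrays, and 5.26, 5.48 and 5.63 on the others. KLF1-/- arrays lay on both sides of the WT range, and the differences were −0.01 and −0.03. Psmb8 and Psmb9 lay below the median of every array, where RMA values compress differences.

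Psmb10, the counterpart of Psmb7, was the member whose arrays separated. It read 7.09 to 7.57 on WT arrays, with a median of 7.17 and a mean of 7.23 ± 0.17 (SD, n = 8). It read 7.33, 7.10 and 6.97 on KLF1-/- arrays and 7.06, 6.88 and 7.01 on the arrays labelled KLF1-/- KLF2-/-. The KLF1-/- values straddled the lower edge of the WT range, while the other 3 lay just below it, the nearest at 7.06 against 7.09. The differences were −0.10 and −0.25 (SE 0.12), with limma p-values of 0.446 and 0.0628 before adjustment and 1 after it. With the number run as a block the second difference was −0.19. The 4 WT arrays of the same run read 7.14, 7.14, 7.19 and 7.23. They lie above all 3 because all 8 WT arrays do, so this adds nothing to the separation.

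The proteases were also compared within each array, as the inducible minus the constitutive log2 value, in 6 exact two-sided permutation tests. Each set 8 against 3 arrays, and so few arrays limit how small such a p can be. Psmb8 minus Psmb5 differed from WT by −0.33 in KLF1-/- (p = 0.352) and by −0.39 under the KLF1-/- KLF2-/- label (p = 0.279), both exact. Psmb9 minus Psmb6 differed by −0.33 (p = 0.473) and −0.29 (p = 0.485), both exact. Psmb10 minus Psmb7 differed by 0.18 (p = 0.739) and −0.12 (p = 0.897), both exact. The exact p-values adjusted over the 6 tests were 0.727 to 0.897, and the WT SD of these measures was 0.48 to 0.96, larger than every difference. No shift between inducible and constitutive proteases was detectable at this number of arrays.

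**Figure D4:**
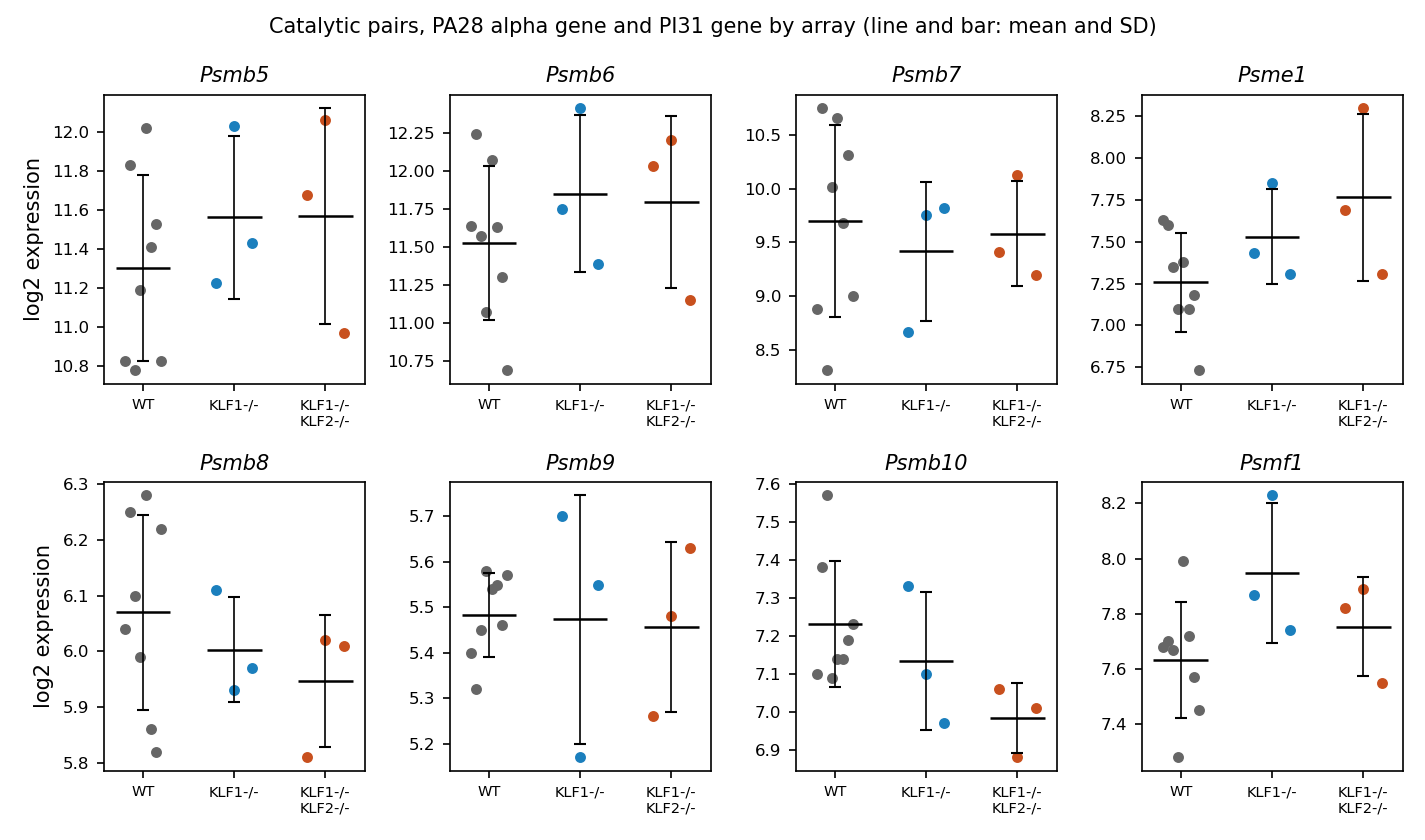
Log2 level of selected proteasome genes on each array (points, by genotype) with the mean of each genotype as a line and its SD as a bar; each panel has its own vertical axis. For Psmb10 the 3 arrays labelled KLF1-/- KLF2-/- (6.88 to 7.06) lie below the 8 WT arrays (7.09 to 7.57), and in the other panels the mutant and WT points overlap.

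The 6 ATPases of the 19S base had median differences of 0.19 and 0.19, with all above 0 and none called. Without KLF1-/- 6 the first median was −0.07 with 2 of 6 above 0, and without array 14 the second was −0.08 with 0 of 6. With the number run as a block they were 0.31 (6 of 6) and 0.07 (3 of 6). Psmc3 had the largest difference of them. It read 8.02 to 9.77 on WT arrays (median 8.97), 9.05, 10.13 and 9.19 on KLF1-/- arrays, and 9.24, 10.06 and 8.52 on the others, with differences of 0.47 and 0.29 (SE 0.36). KLF1-/- 6 and array 14 lay above every WT array, and the other 4 mutant arrays lay inside the WT range. Psmc2, the brightest of the ATPases, differed by 0.0021 and 0.04 (SE 0.17), and Psmc1, the dimmest, by 0.25 and 0.17 (SE 0.36).

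The other base subunits, Psmd1, Psmd2 and Psmd4, serve as scaffolds and receptors for ubiquitin, and they had medians of 0.36 and 0.31, with none called. The first was 0.04 without KLF1-/- 6, the second −0.05 without array 14, and with the block they were 0.52 and 0.07. Psmd2 read 7.83 to 10.15 on WT arrays (median 8.99), 9.06, 10.57 and 8.77 on KLF1-/- arrays, and 9.42, 10.06 and 8.52 on the others. Array KLF1-/- 6 alone lay outside the WT range, and the differences of 0.45 and 0.31 were below their SE of 0.50. Psmd4, which binds ubiquitin chains, differed by 0.36 and 0.23 (SE 0.26), and Psmd1 by 0.27 and 0.31 (SE 0.34).

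In the 19S lid, which carries the deubiquitinating enzyme Psmd14, 6 of 8 genes lay above WT in KLF1-/- and 7 of 8 under the KLF1-/- KLF2-/- label, with medians of 0.06 and 0.11 and none called. Without KLF1-/- 6 the first median was −0.09 and without WT 12 −0.0042, without array 14 the second was −0.0016, and with the block they were 0.11 and 0.06. Psmd8, a lid subunit, had the largest difference of all 46 members in both comparisons. It read 7.01 to 8.64 on WT arrays (median 7.76), 8.41, 8.68 and 7.77 on KLF1-/- arrays, and 8.44, 9.17 and 7.47 on the others. Only KLF1-/- 6 and array 14 exceeded the WT arrays, and the differences were 0.49 (95% interval −0.29 to 1.28) and 0.57 (−0.22 to 1.35). With the number run as a block they were 0.74 and 0.32, and no member was called there either. Without KLF1-/- 6 the first was 0.30, without array 14 the second was 0.16, and without array 15 it was 1.01. Psmd3, the steadiest member, bounded its difference best. It read 9.38 to 9.85 on WT arrays (median 9.76), 9.82, 9.91 and 9.83 on KLF1-/- arrays, and 9.63, 9.80 and 9.84 on the others, and the groups overlap, with differences of 0.16 (−0.09 to 0.40) and 0.06 (−0.18 to 0.30). Psmd6, the brightest lid gene, differed by −0.03 and 0.09, and Psmd7, the dimmest, by 0.23 and 0.20 (SE 0.43). With the block Psmd7 differed by 0.50 and −0.07.

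Chaperones that build the base gave median differences of 0.24 and 0.02 over 3 genes, with none called. Without KLF1-/- 6 the first was 0.09, and without array 13, array 14 or WT 12 the second was −0.08, −0.16 or −0.03. Psmd9 read 7.0 to 7.60 on WT arrays (median 7.33), 7.59, 7.87 and 7.29 on KLF1-/- arrays, and 7.42, 7.52 and 7.17 on the others, with differences of 0.24 (unadjusted p = 0.13) and 0.02. Psmd5 differed by 0.30 and 0.07 (SE 0.29), and Psmd10, known also as gankyrin, by −0.06 and −0.15 (SE 0.20).

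Chaperones of the 20S core, which pair and join the alpha subunits, gave medians of 0.01 and −0.20 over 4 genes, again with none called. With the block they were −0.05 and −0.06, and without KLF1-/- 6 the first was −0.13. Under the KLF1-/- KLF2-/- label Psmg1, Psmg3 and Psmg4 lay below WT, by −0.25, −0.16 and −0.34, and Psmg2 lay above it by 0.12. Psmg4 read 8.08, 7.87, 8.06 and 6.94 on WT 1 to 4 and 7.41, 7.12, 6.56 and 6.52 on WT 9 to 12. It read 7.32, 7.64 and 7.05 on KLF1-/- arrays and 7.24, 7.09 and 6.60 on the others. Most WT values of the first number run lay above all of the second, and with the run as a block the differences from WT were −0.40 and 0.08 in place of 0.02 and −0.34. The direction for Psmg4 therefore turned with the block in both comparisons.

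The activators, which open the 20S core without the 19S cap, lay above WT in all 3 genes in both comparisons, with medians of 0.24 and 0.24 and none called. The first median was −0.06 without KLF1-/- 6, the second −0.14 without array 14, and with the block they were 0.29 and 0.09. Psme1 read 6.73 to 7.63 on WT arrays, with a median of 7.27 and a mean of 7.26 ± 0.29 (SD, n = 8). It read 7.43, 7.85 and 7.31 on KLF1-/- arrays and 7.69, 8.30 and 7.31 on the arrays labelled KLF1-/- KLF2-/-. Array KLF1-/- 6 and arrays 13 and 14 lay above the WT range and the other 3 lay inside it. The differences were 0.27 (SE 0.22) and 0.51 (SE 0.22), with limma p-values of 0.233 and 0.0332 before adjustment and 1 after it. With the number run as a block they were 0.11 and 0.67, without KLF1-/- 6 the first was 0.11, and without array 14 the second was 0.24. Psme3, the nuclear activator, differed by 0.13 and 0.24 (SE 0.39), and Psme4, a large activator known from the testis, by 0.24 and 0.16 (SE 0.26).

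Psmf1, the inhibitor that competes with the activators for the core, had the smallest p of the members in KLF1-/-. It read 7.28 to 7.99 on WT arrays (median 7.67), 7.87, 8.23 and 7.74 on KLF1-/- arrays, and 7.82, 7.89 and 7.55 on the others. Only KLF1-/- 6 lay above the WT range. The differences were 0.32 (SE 0.15, unadjusted p = 0.0501, adjusted p = 1) and 0.12 (unadjusted p = 0.419). Without KLF1-/- 6 the first difference was 0.17.

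Between the mutant groups, no proteasome gene differed by the test. Of the 46 members 0 were called, against 1 of all genes (0.00807%), and 0 had an unadjusted p under 0.05, against 74 (0.597%). The differences, of the arrays labelled KLF1-/- KLF2-/- minus KLF1-/-, ran from −0.36 (Psmg4) to 0.24 (Psme1), with a median of −0.06 and 19 of 46 above 0. The smallest unadjusted p-values were 0.252 for Psmd9, at −0.21, 0.297 for Psmf1, at −0.19, and 0.323 for Psmb10, at −0.15. All 4 chaperones of the core, all 3 of the base and all 3 inducible subunits lay below 0 here. These counts also turned with single arrays. Without KLF1-/- 6 2 of the 4 and 1 of the 3 chaperones lay above 0, and without array 15 1 of the 4 and 2 of the 3. Without KLF1-/- 8 1 of the 4 chaperones of the core lay above 0. Of the 3 inducible subunits 1 lay above 0 without KLF1-/- 5 and 1 without KLF1-/- 8. Without array 13 2 of these 3 did, with a median of 0.012. Each mutant group lies in another number run, and with the run as a block Psmg4 differed by 0.48 and Psme1 by 0.56.

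The direction of a difference also depended on which probe set of a gene was read. The 46 genes have 83 probe sets on the array, and 21 genes have more than 1, up to 6 for Psmd11, a lid subunit. Of the 37 other probe sets, 23 had the sign of the brightest one in KLF1-/- and 24 under the KLF1-/- KLF2-/- label. Psmf1 has 3 others, which differed by 0.003, 0.25 and 0.18 in KLF1-/-, beside 0.32 for the brightest. Psmd6 has 1 other, which differed by 0.29 in KLF1-/- where the brightest differed by −0.03.

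Outside the gene names of the rule, 28 of 39 listed genes of the ubiquitin pathway were measured, and 0 were called in either comparison, with 17 above 0 in each and medians of 0.06 and 0.05. Pomp, the chaperone that completes the core, differed by 0.20 and 0.02, and Nfe2l1, the factor that raises proteasome genes when the proteasome is inhibited, by 0.06 and 0.09. The smallest p-values were those of Bag6, a chaperone of misfolded proteins (0.40, unadjusted p = 0.0637, in KLF1-/-), and Ube2h, a ubiquitin-conjugating enzyme of maturing red cells (0.39, unadjusted p = 0.0307, under the KLF1-/- KLF2-/- label). Ube2h read 9.06 to 9.86 on WT arrays and 9.94, 9.98 and 9.63 on those 3, so that the groups overlap.

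Genes that interferon induces together with Psmb8, Psmb9, Psmb10 and Psme1 were not called either. Of 20 listed, 16 were measured, with 3 above 0 in KLF1-/- (median −0.06) and 10 under the KLF1-/- KLF2-/- label (median 0.02). Their mean level was 6.30 to 6.73 on WT arrays, 6.24 to 6.46 on KLF1-/- arrays and 6.45 to 6.48 on the others. The smallest p of the list in KLF1-/- was that of Cd74, which differed by −0.32 and −0.09 (limma unadjusted p = 0.0715 and 0.607). Tap1, whose promoter window is shared with Psmb9, differed by −0.24 and −0.07 (unadjusted p = 0.117 and 0.636). Irf9, an interferon signalling factor, differed by 0.19 and 0.31 (unadjusted p = 0.203 and 0.0489).

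Markers of other cells were read beside Psmb10 and Psme1, and none was called. The mean level of 12 macrophage markers was 6.58 to 6.97 on WT arrays, 6.60 to 6.79 on KLF1-/- arrays and 6.99 to 7.10 on the arrays labelled KLF1-/- KLF2-/-. That of 6 megakaryocyte markers was 7.15 to 7.64, 7.56 to 7.81 and 7.84 to 8.33. For both lists the last group lay above every WT array. Of the macrophage markers 8 of 12 lay above 0 under that label, with a median of 0.17 and Laptm5 alone at 1.42, and in KLF1-/- 3 did, with a median of −0.13. All 6 megakaryocyte markers lay above 0 in both comparisons, with medians of 0.27 and 0.58. Of 8 mesenchyme markers 5 lay above 0 in KLF1-/- (median 0.04) and all 8 under the KLF1-/- KLF2-/- label (median 0.38), and their mean level was 10.05 to 11.07 on WT arrays, 10.30 to 11.10 on KLF1-/- arrays and 10.75 to 11.11 on the others. Of 9 endothelium markers 8 lay above 0 in KLF1-/- (median 0.05) and 6 under the KLF1-/- KLF2-/- label (median 0.03). Their mean level was 6.52 to 6.78 on WT arrays, 6.56 to 6.97 on KLF1-/- arrays and 6.59 to 6.72 on the others. Of the 9 visceral endoderm markers, whose mean levels are given above, 7 lay above 0 in KLF1-/- (median 0.26). Under the KLF1-/- KLF2-/- label 4 did (median −0.04). The part of these cells in the values of Psmb10 and Psme1 was not tested.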

How the data were processed

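Log2 expression values per probe set were used as deposited by the authors. The submitters' processing notes name limma, affy, RMA and GCOS, without versions. RMA corrects background, brings arrays to one scale and merges the probes of a set, and it compresses differences between weak signals. Per the labels' protocols, 10 to 20 ng of RNA was amplified in 2 cycles from the poly(A) tail, which favours 3′ ends. Values ran from 3.29 to 14.71, and array medians from 6.55 to 6.66. Depth does not apply, and the number of arrays limits the precision.

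The platform annotation paired 20380 probe sets with 1 gene, 691 with several and 1555 with none, and 64 were controls. A linear model of 3 genotype means was fitted to 14 arrays and 12393 genes with limma 3.58.1 in R 4.3.3 (lmFit, eBayes, two-sided). Benjamini-Hochberg adjustment ran over the 12393 genes, and called means an adjusted p under 0.05. The fit was tested on simulated data. Python 3.11.15, pandas 2.3.3, scipy 1.17.1 and matplotlib 3.10.9 made the tables, permutation tests and figures. Promoters came from RefSeq's table for GRCm38.p6.

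The members, the gene lists and the tests were chosen with earlier results of these data known. Members named with values were the 3 with the smallest p in each comparison, the inducible subunits with their constitutive counterparts, Psme1 and Psme3, the brightest, the dimmest and the most different member of each subcomplex, and any whose arrays did not overlap WT. Alternatives covered the number run, probe sets, normalization, a filter at log2 6, array weights, the variance model, a Gapdh covariate and each array left out.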

Additional observations from a re-analysis of the deposited data

How the results depend on the processing

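The number of called proteasome genes stayed at 0 in each comparison under every alternative run, each array left out included, but for default array weights. These did not converge and gave 1 array labelled KLF1-/- KLF2-/- a weight of 58.7 and 1 KLF1-/- array a weight of 10.6. They called 12 members (10 up, 2 down) under the KLF1-/- KLF2-/- label against WT and 22 (17 up, 5 down) between the mutant groups. Of all 12393 genes they called 1317 up and 1030 down under that label against WT, and 3160 up and 2869 down between the groups. Between the mutant groups, Psma4 (0.46), Psmb6 (0.61), Psmc2 (−0.26), Psmd2 (0.61) and Psmd5 (0.44) were among the members that turned direction. Weights with a strong prior, added after seeing the data, called 0. The median difference of the members over the other settings was −0.02 to 0.17 in KLF1-/-, −0.004 to 0.17 under the KLF1-/- KLF2-/- label and −0.11 to 0.18 between them, and with single arrays left out −0.08 to 0.28, −0.07 to 0.33 and −0.26 to 0.19.

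Within arrays, Psmb10 minus Psmb7 turned to −0.080 in KLF1-/- and 0.14 under the KLF1-/- KLF2-/- label against WT arrays of the same number run. With single arrays left out, added after seeing the data, it ran from −0.29 to 0.47 and from −0.33 to 0.20, and Psmb9 minus Psmb6 in KLF1-/- from −0.60 to 0.10. The cause was not tested. No paired analysis was possible because the titles number every array once. Dim probe sets such as those of Psmb8 and Psmb9 limit what RMA values can show.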
